A study of Mus musculus with 32 samples.

Results

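The 10 genes described here encode the ligands, receptors and latent binding proteins of transforming growth factor-β (TGF-β) and were chosen by name: Tgfb1, Tgfb2, Tgfb3, Tgfbr1, Tgfbr2, Tgfbr3, Ltbp1, Ltbp2, Ltbp3 and Ltbp4. All 10 were among the 27109 named genes with a tested feature, a feature being a 60-base oligonucleotide on the array. They were read by 17 features, and 6 of the genes had more than 1. Whole-lung RNA of C57Bl/6J mice was hybridised to 32 one-colour Agilent arrays, with a single mouse on each. There were 8 groups of 4 mice. Newborn pups were kept in 21% O2 (normoxia) or in 85% O2 (hyperoxia), the exposure that models bronchopulmonary dysplasia. All of them received an antimiR by intraperitoneal injection, either a scrambled sequence or antimiR-34a, which is directed against the microRNA miR-34a. Lungs were perfused with saline through the heart and taken at post-natal day (P)5 or P14. The groups therefore were the 2 antimiRs in 21% and in 85% O2 at each age, with no group that went uninjected. All comparisons are between mice given an oligonucleotide.

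TGF-β ligands are secreted in a latent form, in which the growth factor stays bound to its own propeptide. That complex is linked to a latent TGF-β binding protein (LTBP) and stored in the extracellular matrix until integrins or proteases release the ligand. The free ligand binds the type II receptor, which recruits and phosphorylates the type I receptor, and the type I receptor phosphorylates SMAD2 and SMAD3. In the developing lung the pathway takes part in septation, matrix production and myofibroblast differentiation.

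3 sets of sequences are shown for what the arrays could read. The first is the mature miR-34a-5p, the target of the antimiR, from RefSeq (GRCm38.p6, chr4:150068473-150068494, plus strand), with the seed, bases 2 to 8, in capitals:
miR-34a-5p: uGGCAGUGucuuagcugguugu
None of the 17 features of the 10 genes held the 7-base match to that seed, which 250 of 55681 features of the array (0.449%) did. The features are 60 bases each and do not cover the transcripts, so that the count says nothing of sites elsewhere in these mRNAs.

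The second set is the pair of features that read Tgfb1 and Tgfb2, which both lie near the end of the coding sequence of the mature ligand. They are shown because related mRNAs can cross-hybridise, and their identical bases, without gaps, are in capitals:
Tgfb1: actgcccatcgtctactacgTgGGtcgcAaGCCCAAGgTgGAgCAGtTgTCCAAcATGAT
Tgfb2: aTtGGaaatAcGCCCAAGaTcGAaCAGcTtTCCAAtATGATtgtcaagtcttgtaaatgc
The Tgfb1 feature lies at chr7:26489877-26489936 (plus strand) and the Tgfb2 feature at chr1:188449333-188449392 (minus strand), both in the mm9 coordinates of the array annotation. In their best overlap 28 of 41 bases (68.3%) were identical. Whether one mRNA binds the other gene's feature was not tested. At P14 both features of the pair were higher in 85% O2, by different amounts. Another Tgfb2 feature, at chr1:188447534-188447593, gave called differences of the same sign as the first at P14. In scrambled antimiR mice at P5 the signs of these Tgfb2 features were opposite, on small differences.

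The third set is the 250 bases before the transcription start of 3 of the genes, from the RefSeq promoter table (GRCm38.p6). They are shown because Tgfb2, Tgfb1 and Tgfbr2 were higher in 85% O2 at P14, as was Ltbp3, whose window is described without being printed. The motif TATAAA (the TATA box) and the motif GGGCGG (the GC box), on either strand, are in capitals:
Tgfb2: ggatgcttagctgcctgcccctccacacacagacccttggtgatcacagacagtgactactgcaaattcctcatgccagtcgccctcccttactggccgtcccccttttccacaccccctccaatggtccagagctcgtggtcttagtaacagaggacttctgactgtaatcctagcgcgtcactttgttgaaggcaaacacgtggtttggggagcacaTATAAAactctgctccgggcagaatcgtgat
Tgfb1: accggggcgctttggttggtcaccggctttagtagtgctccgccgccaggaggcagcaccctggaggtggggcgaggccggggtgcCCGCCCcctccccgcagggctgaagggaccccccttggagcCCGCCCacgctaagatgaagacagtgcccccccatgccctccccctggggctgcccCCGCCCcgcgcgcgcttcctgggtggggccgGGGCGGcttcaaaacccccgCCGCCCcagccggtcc
Tgfbr2: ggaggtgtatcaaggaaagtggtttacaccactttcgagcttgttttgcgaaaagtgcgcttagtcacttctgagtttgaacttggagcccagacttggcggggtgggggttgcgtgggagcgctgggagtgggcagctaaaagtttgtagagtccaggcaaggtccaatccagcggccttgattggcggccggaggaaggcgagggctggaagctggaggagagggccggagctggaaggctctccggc
The Tgfb2 window (chr1:186705990-186706239, minus strand) held TATAAA at 31 bases before the start and no GGGCGG. The Tgfb1 window (chr7:25686752-25687001, plus strand) held 5 copies of GGGCGG and no TATAAA. The Tgfbr2 window (chr9:116175364-116175613, minus strand) held neither, and nor did that of Ltbp3. Of all 32851 windows of that length, 12.4% held TATAAA and 32.7% held GGGCGG. The SMAD-box letters CAGAC occurred in 42.2% of all windows, with 2 copies in the Tgfb2 window, 1 each in the Tgfbr2 and Ltbp3 windows and none in the Tgfb1 window. Windows were at hand for 8 of the 10 genes, and Tgfb2 was the 1 gene of these with TATAAA. A match of letters is a description of the sequence and not a bound site.

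Levels are log2 of the processed spot intensity minus the 75th percentile of the array, so that a level of 0 equals that percentile, and a difference of 1 is a doubling. They are compared between groups and never between features. A difference was called at an adjusted p under 0.05 (limma, Benjamini-Hochberg adjustment over all features tested), and folds are 2 to the power of the log2 difference. Where a gene had several features, the brightest stands for it, and the others are given where they differed in call. The features of all 10 genes were well above background on all 32 arrays, apart from a second feature of Ltbp1. The arrays were on 4 slides, each with 1 age and 1 oxygen level, and on each slide the scrambled antimiR mice were in one row and the antimiR-34a mice in the other. Oxygen level and age thus cannot be told apart from slide, nor antimiR from array row. At P14 the arrays of the 21% O2 slide had 39014 to 40788 features well above background, and those of the 85% O2 slide 34617 to 36478. The part of this in the differences of dim features was not tested. All 8 lung epithelium markers and all 8 endothelium markers were tested in every comparison. 3 arrays stood apart, 1 of P5 21% O2 scrambled antimiR mice (replicate 4) by skeletal muscle genes and 2 of P14 21% O2 mice (scrambled antimiR replicate 4, antimiR-34a replicate 1) by brightness. Counts without them are given with the comparisons of oxygen levels that hold them. The dimmest array of all was replicate 3 of the P5 85% O2 antimiR-34a mice, with a 75th percentile of 9.20 (log2 intensity) against 9.77 to 9.93 in the others of its group.

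**Figure D1:**
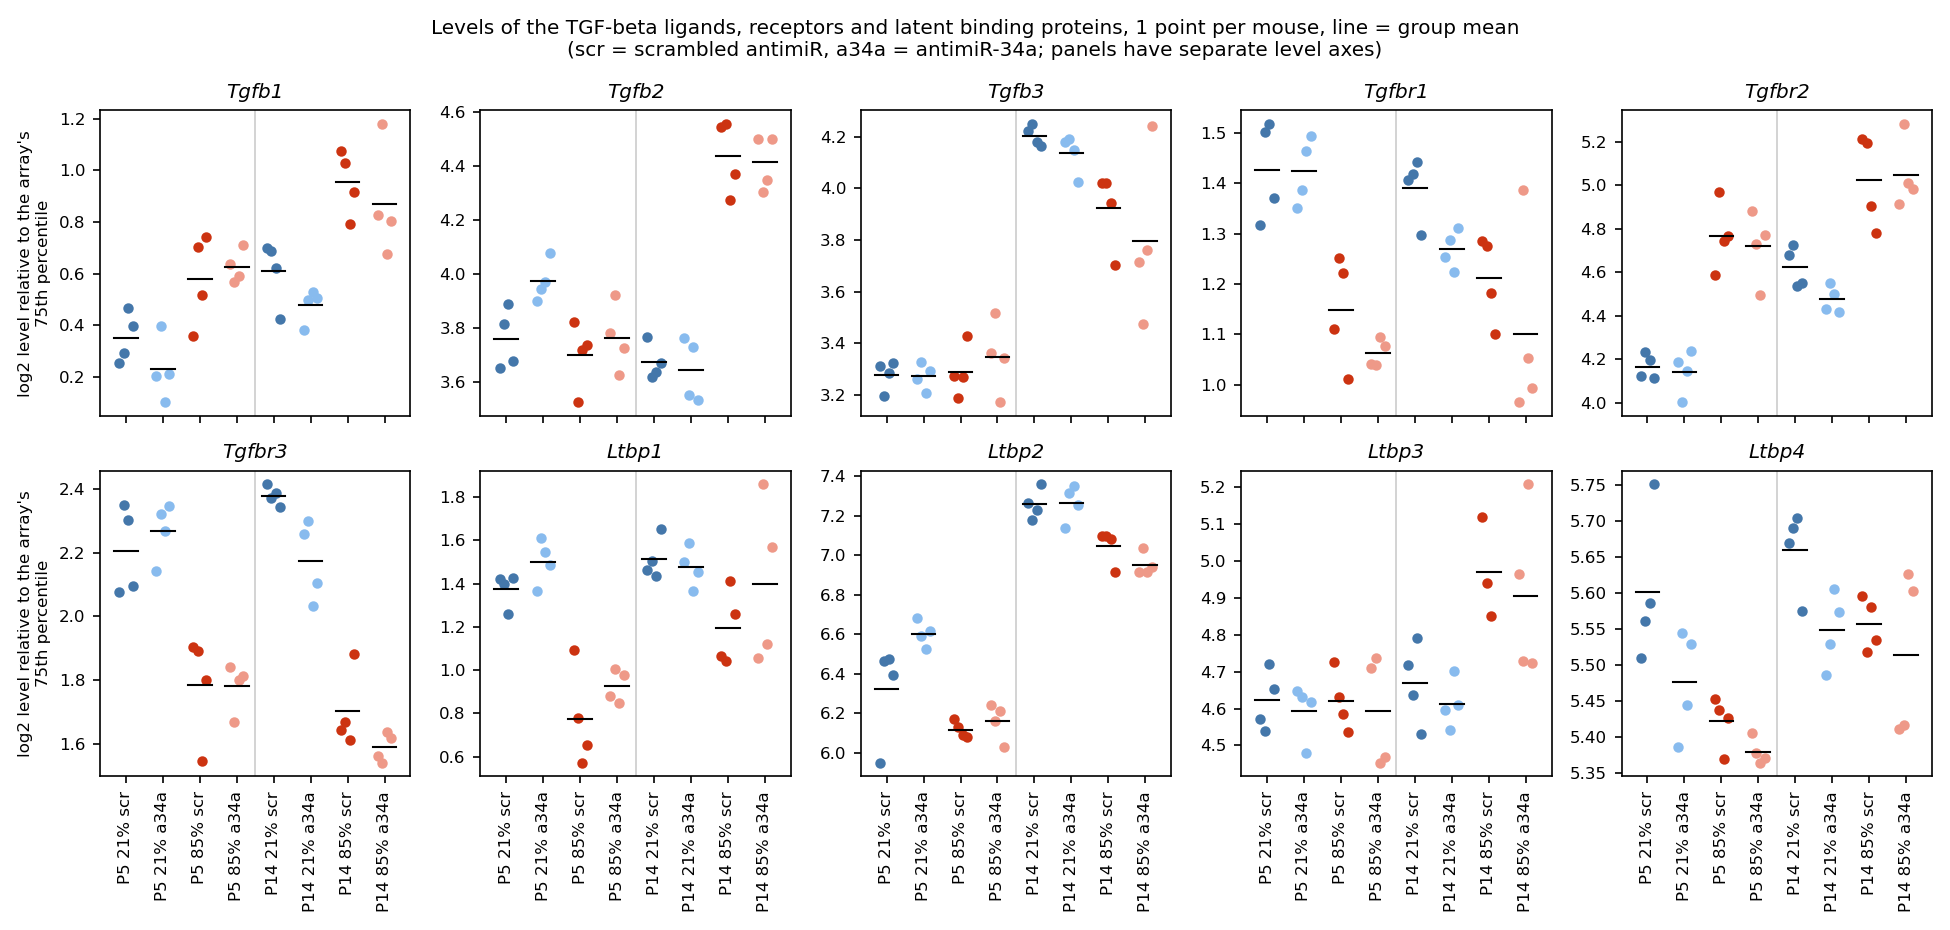
Level of each of the 10 genes in each mouse (points; log2, log2 intensity minus the array's 75th percentile) by group, with the mean of the group; blue is 21% O2 and red 85% O2. Tgfb2 stands out at P14, where every 85% O2 mouse (4.27 to 4.55) lies above every 21% O2 mouse (3.54 to 3.77), and Tgfbr2 is separated by oxygen level at both ages.

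At P5 in scrambled antimiR mice, the lungs in 85% O2 had more Tgfbr2 mRNA and less Tgfbr1, Tgfbr3, Ltbp1 and Ltbp4 mRNA than those in 21% O2. Of the 10 genes, 5 were called, 1 higher and 4 lower. Over all features tested 43.9% were called in this comparison, 17.5% higher and 26.4% lower, so that the share among the 10 genes was near the background. The median size of the difference was 0.22 over the 10 genes and 0.27 over all features (log2). Without the 3 arrays that stood apart the count was 4. The share of higher among all called features was 39.9%, and 52.8% after quantile normalization. In antimiR-34a mice at P5, 6 of the 10 genes were called, 2 higher (Tgfb1, Tgfbr2) and 4 lower (Tgfbr1, Tgfbr3, Ltbp1, Ltbp2), against 46.6% of all features (17.2% higher, 29.5% lower). There the share of higher was 36.8%, and 49.1% after quantile normalization, and the count of genes was 6 without the dimmest array.

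At P14 the ligands Tgfb1 and Tgfb2, the type II receptor Tgfbr2 and Ltbp3 were higher in 85% O2 in scrambled antimiR mice, and Tgfbr3 and Ltbp2 were lower. These 6 calls (4 higher, 2 lower) stand against 60.8% of all features called (28.4% higher, 32.4% lower). The median size of the difference over the 10 genes, 0.31, was below that over all features, 0.47 (log2). In antimiR-34a mice 7 genes were called, with Tgfb1, Tgfb2, Tgfbr2 and Ltbp3 higher and Tgfb3, Tgfbr3 and Ltbp2 lower, against 65.6% of all features (27.8% higher, 37.8% lower). Both counts were 5 without the 3 arrays that stood apart. Among called features the share of higher was 46.7% (scrambled antimiR) and 42.4% (antimiR-34a), and with normexp background correction 62.8% and 53.3%. It was 51.8% and 56% after quantile normalization. With that setting, in scrambled antimiR mice, Tgfbr2 and Ltbp3 lost the call and Tgfb3, Tgfbr1, Ltbp1 and Ltbp4 were called lower. In antimiR-34a mice Ltbp3 lost it and Tgfbr1 was called lower. The authors' table of log2 values gave the same changes. The split of higher and lower among the 10 genes thus depended on the normalization.

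**Figure D2:**
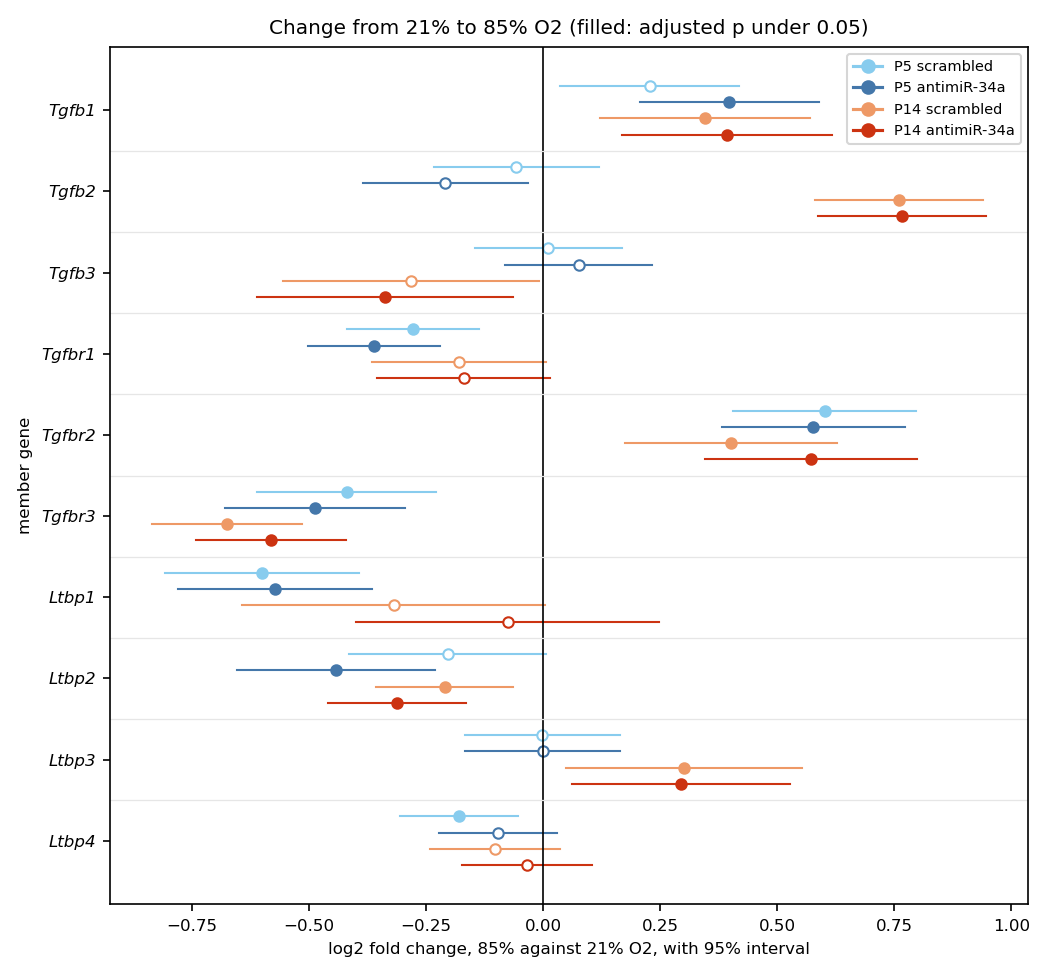
Difference between 85% and 21% O2 (log2, with 95% confidence interval) for each gene at P5 and P14 in scrambled antimiR and antimiR-34a mice; filled points passed the adjusted p. Tgfb2 is near 0 or below at P5 and at 0.76 and 0.77 at P14, whereas Tgfbr2 is above 0 and Tgfbr3 below 0 in all 4 comparisons.

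Of the ligands, Tgfb2, the isoform that depends most on betaglycan for access to the type II receptor, changed most. At P5 its level in scrambled antimiR mice was 3.65, 3.81, 3.89 and 3.68 in 21% O2 and 3.82, 3.53, 3.72 and 3.74 in 85% O2. At P14 it was 3.77, 3.62, 3.64 and 3.67 in 21% O2 and 4.54, 4.55, 4.27 and 4.37 in 85% O2. The groups overlapped at P5 and were apart at P14. The difference at P14 was 0.76 (SE 0.08, log2), a 1.69-fold higher level with an adjusted p of 4.45e-06. In antimiR-34a mice at P14 the levels were 3.76, 3.56, 3.73 and 3.54 in 21% O2 and 4.50, 4.31, 4.35 and 4.50 in 85% O2, a difference of 0.77 (adjusted p = 3.71e-06). The other Tgfb2 feature gave differences of 0.62 and 0.58 at P14 in the 2 antimiR groups, both called. At P5 in antimiR-34a mice Tgfb2 missed the threshold at -0.21 (adjusted p = 0.0502). Without replicate 2 of the P5 85% O2 antimiR-34a mice it was called at -0.26 (adjusted p = 0.0224), as it was after quantile normalization (-0.24, adjusted p = 0.0275) and with 3 other settings (adjusted p from 0.0283 to 0.0462).

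Tgfb1, the isoform most abundant in blood platelets and inflamed tissue, was called higher in 85% O2 in 3 of the 4 comparisons. At P14 in scrambled antimiR mice its levels were 0.70, 0.69, 0.62 and 0.42 in 21% O2 and 1.08, 1.03, 0.79 and 0.92 in 85% O2. These groups did not overlap, and the difference was 0.34 (SE 0.10, 1.27-fold, adjusted p = 0.0110). In antimiR-34a mice it was 0.40 at P5 (1.32-fold, adjusted p = 0.00226) and 0.39 at P14 (1.31-fold, adjusted p = 0.00457), the latter lost in the methods' t-test (adjusted p = 0.0545). At P5 the scrambled antimiR mice had 0.25, 0.29, 0.47 and 0.40 in 21% O2 and 0.36, 0.70, 0.52 and 0.74 in 85% O2, which overlapped. That difference of 0.23 missed the threshold (adjusted p = 0.0512). It was called without replicate 3 of the 21% O2 mice (0.27, adjusted p = 0.0420) and without replicate 1 of the 85% O2 mice (0.30, adjusted p = 0.00962). It was also called with 6 other settings, normexp and quantile normalization among them, with differences from 0.21 to 0.26 and adjusted p from 0.0162 to 0.0496.

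Tgfb3, the ligand whose loss in mice delays lung development and leaves a cleft palate, showed little difference by oxygen at P5. Its levels in scrambled antimiR mice were 3.31, 3.19, 3.28 and 3.32 in 21% O2 and 3.27, 3.19, 3.27 and 3.43 in 85% O2, and the interval of the difference ran from -0.15 to 0.17 (log2). At P14 the levels were 4.22, 4.25, 4.18 and 4.17 in 21% O2 and 4.02, 4.02, 3.94 and 3.70 in 85% O2. The 4 hyperoxia values lay below all normoxia values, but the difference of -0.28 missed the threshold (SE 0.13, adjusted p = 0.0690). It was called at -0.47 after quantile normalization (adjusted p = 0.00909) or in the series table (adjusted p = 0.00853), and also with only the groups compared in the fit (adjusted p = 0.0235) and with array weights (adjusted p = 0.0170). In antimiR-34a mice at P14 the levels were 4.18, 4.19, 4.15 and 4.02 in 21% O2 and 3.71, 3.48, 3.76 and 4.24 in 85% O2. Replicate 4 of the 85% O2 mice lay above the whole normoxia group, and the difference of -0.34 passed (1.26-fold lower, adjusted p = 0.0309). The call was lost when any 1 of 6 arrays was left out (replicates 1, 2 and 3 of either group), with adjusted p from 0.0590 to 0.105. It was lost as well with a replicate block, without the 3 arrays that stood apart, with only the groups compared and in the methods' t-test (adjusted p from 0.0560 to 0.169). The call was kept in 9 of the 19 settings tried, with an adjusted p down to 0.000519.

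Of the receptors, Tgfbr2, which binds the free ligand, was higher in 85% O2 in all 4 comparisons. At P5 its levels in scrambled antimiR mice were 4.12, 4.24, 4.196 and 4.11 in 21% O2 and 4.59, 4.97, 4.75 and 4.77 in 85% O2. At P14 they were 4.68, 4.72, 4.54 and 4.55 in 21% O2 and 5.21, 5.20, 4.90 and 4.78 in 85% O2. The groups were apart at both ages. The difference was 0.60 at P5 (SE 0.09, 1.52-fold, adjusted p = 0.000135) and 0.40 at P14 (SE 0.11, 1.32-fold, adjusted p = 0.00468). In antimiR-34a mice it was 0.58 at P5 (adjusted p = 0.000164) and 0.57 at P14 (adjusted p = 0.000304). The P14 call in scrambled antimiR mice was lost after quantile normalization, where the difference was 0.19 (adjusted p = 0.101), in the series table (0.18, adjusted p = 0.106) and in the methods' t-test (adjusted p = 0.0517).

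The second feature of Tgfbr2, at chr9:115999496-115999555 (mm9), showed a larger difference at P14 than the first, at chr9:115997155-115997214. At P14 it read, in scrambled antimiR mice, -0.71, -0.76, -0.78 and -0.66 in 21% O2 and 0.62, 0.98, 1.19 and 1.42 in 85% O2. In antimiR-34a mice it read -0.87, -0.93, -0.97 and -1.01 in 21% O2 and 0.88, 1.18, 0.74 and 0.79 in 85% O2. All 8 hyperoxia values were above 0 and all 8 normoxia values below it. The differences were 1.78 (SE 0.14, 3.44-fold, adjusted p = 1.97e-07) and 1.84 (3.59-fold, adjusted p = 1.41e-07). At P5 the same feature gave 0.48 (adjusted p = 0.00800) in scrambled antimiR mice and 0.41 (adjusted p = 0.0172) in antimiR-34a mice. Both features are assigned to the same reference transcript on the array, and which transcripts each one reads was not tested. The size of the Tgfbr2 difference at P14 therefore depended on the feature, and its direction did not.

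Tgfbr1, the type I receptor and kinase of the SMAD proteins, was lower in 85% O2 at P5. Its levels in scrambled antimiR mice were 1.32, 1.50, 1.52 and 1.37 in 21% O2 and 1.11, 1.25, 1.22 and 1.01 in 85% O2. No hyperoxia value reached the lowest normoxia value, and the difference was -0.28 (SE 0.07, 1.21-fold lower, adjusted p = 0.00376). In antimiR-34a mice at P5 it was -0.36 (1.28-fold lower, adjusted p = 0.000511). At P14 neither comparison passed (-0.18, adjusted p = 0.0853, and -0.17, adjusted p = 0.0977). The latter was called at -0.27 without replicate 2 of the P14 85% O2 antimiR-34a mice (adjusted p = 0.00270). After quantile normalization both were called, at -0.23 and -0.24 (adjusted p = 0.0223 and 0.0163), and likewise with the series table and with array weights. The methods' t-test called the former (adjusted p = 0.0394).

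A second Tgfbr1 feature, at chr4:47424946-47425005, moved the other way at P14. At P14 the scrambled antimiR mice read -3.39, -3.78, -3.55 and -3.56 in 21% O2 and -2.87, -2.96, -2.74 and -2.65 in 85% O2. All hyperoxia values were higher, and the difference was 0.77 (SE 0.14, 1.70-fold, adjusted p = 0.000434), with 0.58 in antimiR-34a mice (adjusted p = 0.00306). At P5 its differences were within 1 SE and not called. The first feature, at chr4:47427736-47427795, is assigned to the same reference transcript. No direction is therefore given for Tgfbr1 at P14, and with the mean of its features the P5 calls were lost as well (-0.15 in both antimiR groups, adjusted p = 0.0976 and 0.0913).

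**Figure D3:**
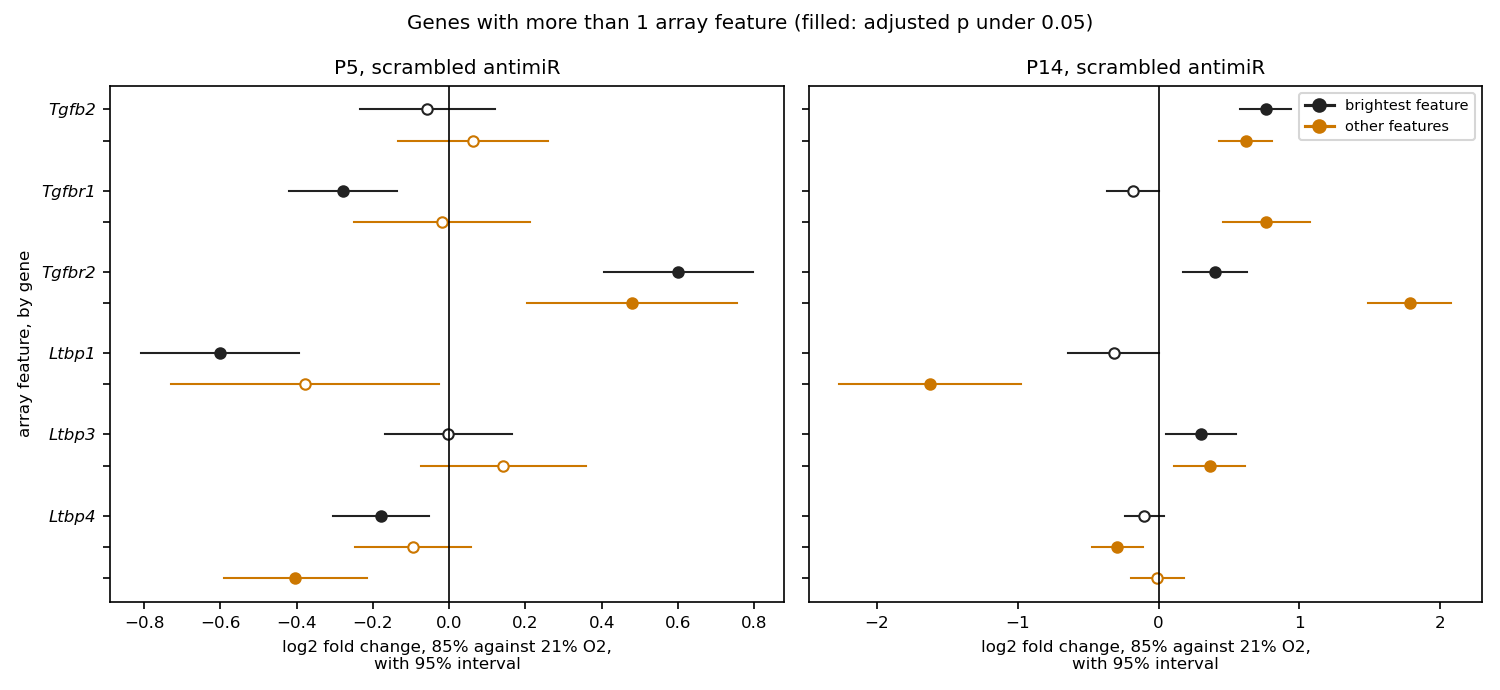
Difference between 85% and 21% O2 (log2, with 95% confidence interval) for every feature of the 6 genes with more than 1, at P5 and at P14 in scrambled antimiR mice, on separate axes. The second features of Tgfbr2 (1.78) and Tgfbr1 (0.77) stand apart from the first at P14, while those of Tgfb2 (0.76 and 0.62) and Ltbp3 (0.30 and 0.36) are close; the point of the second Ltbp1 feature at P14 is the fitted value of a feature below background in 85% O2.

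Tgfbr3, or betaglycan, is a membrane proteoglycan that presents ligand, Tgfb2 above all, to the type II receptor, and its shed form binds ligand away from it. It was lower in 85% O2 in all 4 comparisons. At P5 the scrambled antimiR mice had 2.08, 2.35, 2.30 and 2.10 in 21% O2 and 1.91, 1.89, 1.55 and 1.80 in 85% O2. At P14 they had 2.41, 2.37, 2.39 and 2.34 in 21% O2 and 1.65, 1.67, 1.61 and 1.88 in 85% O2. The groups were apart at both ages, with the larger gap at P14. The difference was -0.42 at P5 (1.34-fold lower, adjusted p = 0.00183) and -0.67 at P14 (SE 0.07, 1.60-fold lower, adjusted p = 4.71e-06). In antimiR-34a mice it was -0.49 at P5 (adjusted p = 0.000528) and -0.58 at P14 (adjusted p = 1.47e-05). No setting tried changed any of these 4 calls, other than a threshold of at least 2-fold.

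Of the binding proteins, Ltbp1, which ties latent TGF-β to fibrillin and fibronectin, was lower in 85% O2 at P5. Its levels in scrambled antimiR mice were 1.42, 1.40, 1.26 and 1.43 in 21% O2 and 1.09, 0.78, 0.57 and 0.66 in 85% O2. In antimiR-34a mice they were 1.37, 1.61, 1.54 and 1.48 in 21% O2 and 0.88, 1.00, 0.85 and 0.98 in 85% O2. The oxygen groups were apart in both antimiR groups. The differences were -0.60 (1.52-fold lower, adjusted p = 0.000212) and -0.57 (1.49-fold lower, adjusted p = 0.000272). At P14 the scrambled antimiR mice had 1.46, 1.50, 1.44 and 1.65 in 21% O2 and 1.07, 1.04, 1.41 and 1.26 in 85% O2, and the difference of -0.32 was not called (adjusted p = 0.0812). It was called after quantile normalization (-0.38, adjusted p = 0.0364), in the series table (adjusted p = 0.0362), with only the groups compared (adjusted p = 0.0284) and with array weights (adjusted p = 0.0285). The mean of both features gave -0.97 (adjusted p = 0.000337). That mean holds the second feature, described next, which was below background in 85% O2, so that it gives no support to the difference. In antimiR-34a mice at P14 the 85% O2 values, 1.06, 1.86, 1.12 and 1.57, were spread over the normoxia range and beyond.

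A second Ltbp1 feature, at chr17:75446945-75447004 and annotated to a cDNA clone (the first is at chr17:75790530-75790589), was not well above background on any P14 85% O2 array. In scrambled antimiR mice at P14 it was lower in 85% O2 than in 21% O2, where all 4 arrays were above background. With the dim arrays set to the faintest signal well above background on each (mean -6.06), the fold was 1.88. That is not a lower bound, as the limit of detection of this feature can lie higher. Replicate 1 of the P5 85% O2 antimiR-34a mice read -5.51 and was not well above background. The adjusted p (0.000383) belongs to fitted values that include signals below background. At P14 the feature was tested only because of the 21% O2 scrambled antimiR group, so that the test gives no support to the difference. At P14 in antimiR-34a mice, 3 of 4 normoxia arrays measured it, and its call (adjusted p = 0.000890) has no fold beside it. At P5 in scrambled antimiR mice it differed by -0.38 and was not called (adjusted p = 0.0751).

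Ltbp2, an LTBP family member that binds elastic fibres but not latent TGF-β, was called lower in 85% O2 in 3 comparisons. At P14 the scrambled antimiR mice had 7.26, 7.18, 7.23 and 7.36 in 21% O2 and 7.10, 7.09, 7.08 and 6.92 in 85% O2. The groups did not overlap, but the difference was small, at -0.21 (1.16-fold lower, adjusted p = 0.0162). It was lost without replicate 4 of the 85% O2 mice (-0.17, adjusted p = 0.0518) or without replicate 4 of the 21% O2 mice (-0.18, adjusted p = 0.0520). In antimiR-34a mice the difference was -0.44 at P5 (1.36-fold lower, adjusted p = 0.00217) and -0.31 at P14 (1.24-fold lower, adjusted p = 0.00117). In scrambled antimiR mice at P5 the levels were 5.95, 6.46, 6.47 and 6.39 in 21% O2 and 6.17, 6.13, 6.09 and 6.08 in 85% O2. Replicate 1 of the normoxia mice lay below all hyperoxia mice, and the difference of -0.20 was not called (adjusted p = 0.108). Without that array it was called at -0.33 (adjusted p = 0.00142).

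Ltbp3, which binds latent TGF-β and whose loss in mice causes bone defects, was higher in 85% O2 at P14. The scrambled antimiR mice had 4.72, 4.64, 4.79 and 4.53 in 21% O2 and 5.12, 4.94 and 4.85 in 85% O2, where the spot of replicate 1 was an outlier and left out (n = 3). The difference was 0.30 (1.23-fold, adjusted p = 0.0388), and 0.29 in antimiR-34a mice (1.23-fold, adjusted p = 0.0285). The second feature, at chr19:5758082-5758141, was measured in all mice and gave 0.36 (adjusted p = 0.0160) and 0.40 (adjusted p = 0.00794). The call on the first feature was not firm. Among scrambled antimiR mice it was lost on leaving out any 1 of 5 arrays (85% O2 replicates 2 and 3, 21% O2 replicates 1, 2 and 4), with differences from 0.23 to 0.32 and adjusted p from 0.0532 to 0.155. In antimiR-34a mice it was lost on leaving out any 1 of 5 arrays (85% O2 replicates 1 and 3, 21% O2 replicates 1, 2 and 4), with adjusted p from 0.0536 to 0.0886. After quantile normalization the differences were 0.10 and 0.09, and not called. In the series table, where the outlier spot of replicate 1 was not left out, the sign turned in scrambled antimiR mice (-0.27, adjusted p = 0.407). In antimiR-34a mice the difference in that table was 0.087. Normexp (0.24 and 0.25, adjusted p = 0.128 and 0.0839) and the methods' t-test (adjusted p = 0.0680 and 0.116) ended both calls too.

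Ltbp4, the LTBP whose loss disturbs elastic fibres and alveoli, was called lower in 85% O2 at P5 in scrambled antimiR mice. Its levels were 5.51, 5.56, 5.59 and 5.75 in 21% O2 and 5.45, 5.44, 5.37 and 5.43 in 85% O2, a difference of -0.18 (1.13-fold lower, adjusted p = 0.0230). The highest normoxia value was replicate 4, the array with skeletal muscle genes. Without it the difference was -0.13 and not called (adjusted p = 0.0723), and without replicate 3 of the 85% O2 mice it was -0.16 (adjusted p = 0.0652). The call was also lost in the methods' t-test (adjusted p = 0.0871) and with only the groups compared (adjusted p = 0.0709). In antimiR-34a mice at P5 the difference was -0.10 (adjusted p = 0.195), or -0.17 and called with the mean of all features (adjusted p = 0.0372), and the difference between these oxygen effects was not called. At P14 in scrambled antimiR mice it was -0.10 and not called, but -0.29 after quantile normalization (adjusted p = 0.00553) and -0.30 in the series table (adjusted p = 0.00495), both called. A further feature of Ltbp4, at chr7:28096601-28096660 and annotated to a predicted transcript, was lower in 85% O2 at P5 in both antimiR groups (-0.40, adjusted p = 0.00211, and -0.48, adjusted p = 0.000553). One more, at chr7:28091095-28091154, was lower at P14 in scrambled antimiR mice (-0.29, adjusted p = 0.00873) and not called at P5 (-0.095, adjusted p = 0.294).

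Beside these oxygen differences, markers of several cell types moved. The background for the marker counts was 17.5% of all features higher and 26.4% lower at P5 in scrambled antimiR mice, and 28.4% and 32.4% at P14. In scrambled antimiR mice, 6 of 8 lung mesenchyme markers were lower in 85% O2 at P5, as were 5 at P14, with none higher. Their mean level per mouse was 3.11 to 3.26 in 21% O2 and 2.56 to 2.69 in 85% O2 at P5, and 3.43 to 3.46 and 2.78 to 2.84 at P14. Macrophage markers went the other way, with 6 of 7 higher at P5, while at P14 there were 5 higher with 1 lower. Their mean level was 1.76 to 1.97 in 21% O2 and 2.19 to 2.79 in 85% O2 at P5, and 2.14 to 2.36 and 2.64 to 3.27 at P14. All 7 tested markers of dividing cells were lower at P5, and 2 of 7 at P14. The 8 endothelium markers gave 2 higher and 3 lower at P5 (P14: 3 and 2), and the 8 lung epithelium markers 3 higher with 1 lower at P5 (P14: 4 and 1). The endothelium counts and that of dividing cells at P14 were near the background. Neutrophil markers (8 tested) gave 2 lower at P5 and 3 higher at P14, and thymus markers 0 called of 5 tested at P5 and 6 lower of 8 at P14. Skeletal muscle markers (6 tested) gave 3 lower at each age, heart muscle markers (8 tested) 7 and 5 lower, and red blood cell markers (8 tested) 3 and 5 lower. The mean level of the red blood cell markers per mouse was 1.37 to 2.03 in 21% O2 and 0.12 to 1.44 in 85% O2 at P5, and -0.27 to 1.36 and -1.59 to -0.11 at P14. In whole lung, fewer cells of a type and less RNA per cell cannot be told apart. The part of these movements in the differences of the 10 genes was not tested.

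AntimiR-34a made no called difference in any of the 10 genes against scrambled antimiR, in either oxygen level or at either age (limma, 0 of 10 in each of the 4 comparisons). The methods' t-test also called 0 in each. At an unadjusted p under 0.05 there were 2 genes in 21% O2 at P5, 1 in 21% O2 at P14 and 0 in 85% O2 at both ages. Beside them, 6266 (21% O2) and 4685 (85% O2) of all 35984 features were under 0.05 at P5. For P14 these counts were 4054 (21% O2) and 6414 (85% O2) of 38458. Over all features the comparisons called 0.136% (21% O2, P5), 0.0639% (85% O2, P5), 0% (21% O2, P14) and 2.66% (85% O2, P14). In the comparison with 0%, 4054 features had an unadjusted p under 0.05, and array weights called 26.1% of all features and 1 of the 10 genes there. The differences of the 10 genes ran from -0.13 to 0.28 in 21% O2 and from -0.09 to 0.15 in 85% O2 at P5. At P14 they ran from -0.21 to 0.01 in 21% O2 and from -0.12 to 0.20 in 85% O2. The smallest adjusted p of these comparisons were 0.191, 0.507, 0.473 and 0.492.

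On the brightest features some antimiR groups did not overlap, although the difference was not called. How many of all features were apart in this way was not counted, so that the cases are given as values only. Ltbp2 in 21% O2 at P5 was 6.68, 6.59, 6.52 and 6.61 with antimiR-34a, all above the scrambled antimiR mice (highest 6.47), a difference of 0.28 (adjusted p = 0.191). Tgfb2 in the same groups was 3.90, 3.95, 3.97 and 4.08 with antimiR-34a, all above the highest scrambled antimiR value of 3.89, a difference of 0.21 (adjusted p = 0.224), and its second feature did the same (0.32, adjusted p = 0.139). Tgfbr3 in 21% O2 at P14 was 2.26, 2.30, 2.03 and 2.10 with antimiR-34a, below all scrambled antimiR mice (lowest 2.34), with a difference of -0.21 (adjusted p = 0.473). Of the further features, that of Tgfbr2 did not overlap in 21% O2 at P5, with -0.13 to 0.04 under antimiR-34a and -0.68 to -0.25 under scrambled antimiR (difference 0.36, adjusted p = 0.195), nor at P14, where the order was the opposite (difference -0.22, adjusted p = 0.580). One feature of Ltbp4 was lower with antimiR-34a in 21% O2 at P5, at 3.72 to 3.85 against 3.92 to 4.14 (difference -0.20, adjusted p = 0.191). None of these was called.

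**Figure D4:**
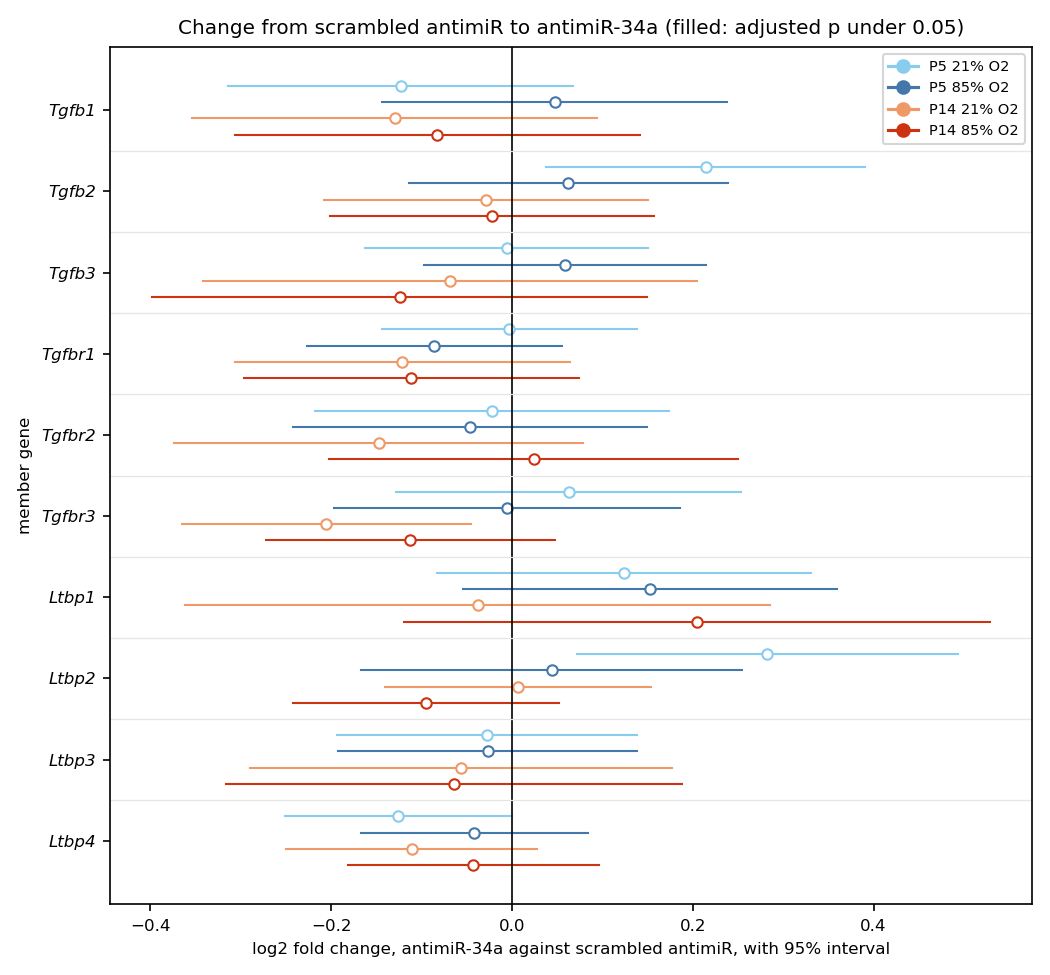
Difference between antimiR-34a and scrambled antimiR (log2, with 95% confidence interval) for each of the 10 genes in each oxygen level and age. No point is filled, as none passed the adjusted p, and the differences lie between -0.21 and 0.28.

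Nor was the oxygen effect of any of the 10 genes called as different between the antimiRs (limma, 0 of 10 at each age, and 0 at an unadjusted p under 0.05). Over all features 0.0556% were called at P5 and 0.0884% at P14, and 3910 of 35984 and 5765 of 38458 had an unadjusted p under 0.05. The differences of the oxygen effect between antimiR-34a and scrambled antimiR mice ran from -0.24 to 0.17 at P5 (smallest adjusted p = 0.560) and from -0.10 to 0.24 at P14 (smallest adjusted p = 0.595).

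With age, the genes that were called on their brightest feature were all higher at P14. In 21% O2, scrambled antimiR mice had more Tgfb1, Tgfb3, Tgfbr2 and Ltbp2 mRNA at P14 than at P5, 4 of 10 genes against 51.4% of all features called (27.8% higher, 23.5% lower). In 85% O2, 7 genes were higher at P14, against 42.2% of all features (26% higher, 16.2% lower). These were Tgfb1, Tgfb2, Tgfb3, Tgfbr2, Ltbp1, Ltbp2 and Ltbp3. None was called lower at either oxygen level. The median difference over the 10 genes was 0.15 in 21% O2 and 0.36 in 85% O2, and over all features 0.04 and 0.09. Among called features in 85% O2 the share of higher was 61.6%, and 47.9% after quantile normalization.

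In 21% O2, Ltbp2 and Tgfb3 showed the largest age differences of the 10 genes on their brightest features, while in 85% O2 these were Ltbp2 and Tgfb2. Ltbp2 was 5.95 to 6.47 at P5 and 7.18 to 7.36 at P14 in 21% O2, a difference of 0.94 (SE 0.08, 1.91-fold, adjusted p = 1.61e-09). In 85% O2 it was 6.08 to 6.17 at P5 and 6.92 to 7.10 at P14, a difference of 0.93 (adjusted p = 3.16e-09). Tgfb3 was 3.19 to 3.32 at P5 and 4.17 to 4.25 at P14 in 21% O2 (difference 0.93, SE 0.10, 1.90-fold, adjusted p = 6.73e-08). In 85% O2 the Tgfb3 difference was 0.63 (1.55-fold, adjusted p = 2.34e-05). In neither gene did the ages overlap at either oxygen level.

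Tgfbr2 was 1.37-fold higher at P14 in 21% O2 (0.46, adjusted p = 0.000401). In 85% O2 the P5 and P14 values overlapped and the difference of 0.26 passed narrowly (adjusted p = 0.0374), with adjusted p from 0.0632 to 0.137 on leaving out any 1 of 5 arrays (P5 replicates 1, 3 and 4, P14 replicates 1 and 2). Its second feature went from P5 to P14 by -0.33 in 21% O2 (adjusted p = 0.0437) and by 0.97 in 85% O2 (adjusted p = 2.91e-06), so that in 21% O2 the 2 features had opposite signs. The direction of Tgfbr2 with age in 21% O2 therefore depended on the feature.

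Tgfb1 was higher at P14 by 0.26 in 21% O2 (adjusted p = 0.0288), where leaving out any 1 of 5 arrays (P5 replicates 1 and 2, P14 replicates 1, 2 and 3) gave adjusted p from 0.0521 to 0.0822, and the methods' t-test 0.0510. In 85% O2 it was higher by 0.37 (1.30-fold, adjusted p = 0.00281). Tgfb2 differed by age in 85% O2 (0.73, 1.66-fold, adjusted p = 9.34e-08) and not by a called amount in 21% O2 (-0.08, adjusted p = 0.399, and 0.19 on its second feature, adjusted p = 0.0771). Ltbp1 in 85% O2 was higher by 0.42 (1.34-fold, adjusted p = 0.00995) with overlapping groups. Its second feature was lower at P14 there, 1.90-fold with the dim arrays set as above, which is not a lower bound. The adjusted p of that feature (9.43e-06) belongs to fitted values that include signals below background. Ltbp3 in 85% O2 was higher by 0.35 (adjusted p = 0.00617), and by 0.28 without replicate 2 of the P14 mice (adjusted p = 0.0506). Tgfbr3 in 21% O2 was not called (0.17, adjusted p = 0.0765), but was without replicate 2 of the P5 mice (0.22, adjusted p = 0.0365). Quantile normalization ended the 85% O2 calls of Tgfbr2 (0.06, adjusted p = 0.633) and Ltbp3 (0.18, adjusted p = 0.225), as did normexp (0.05, adjusted p = 0.678, and 0.21, adjusted p = 0.104) and the series table (0.060, and -0.19 with the sign turned). That of Tgfbr2 was also lost with no filter on dim features (adjusted p = 0.0554) and with only the groups compared (adjusted p = 0.155). The methods' t-test ended those of Tgfb1 (adjusted p = 0.0568), Tgfbr2 (adjusted p = 0.202), Ltbp1 (adjusted p = 0.0804) and Ltbp3 (adjusted p = 0.0795). Ltbp4 missed the threshold in 85% O2 (0.14, adjusted p = 0.0575) and was called in the methods' t-test (adjusted p = 0.0155), with array weights (adjusted p = 0.0341) and without the 3 arrays that stood apart (adjusted p = 0.0360), whereas its sign turned after quantile normalization (-0.078) and in the series table (-0.083).

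Other features differed from the brightest in the age comparison. In 21% O2 the Ltbp4 feature annotated to a predicted transcript was lower at P14 (-0.54, adjusted p = 1.15e-05) and the other one higher (0.25, adjusted p = 0.00854), against 0.06 and no call on the brightest. In 85% O2 the former gave -0.15 and was not called (adjusted p = 0.173). The second feature of Ltbp3 was higher at P14 in 21% O2 (0.40, adjusted p = 0.00375), against 0.05 and no call on the first. That of Ltbp1 gave -0.39 there (adjusted p = 0.191), against 0.14. Tgfbr1 was within 1 SE at both oxygen levels on its first feature and lower by 0.68 in 21% O2 on its second (log2FC -0.68, adjusted p = 0.000100).

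The oxygen effect itself differed between P14 and P5 in 1 of the 10 genes, Tgfb2, against 40.8% of all features. Its effect in scrambled antimiR mice was larger at P14 by 0.82 (SE 0.11, 95% interval 0.58 to 1.05, adjusted p = 5.50e-06), and by 0.56 on the second feature (adjusted p = 0.000941). At P5 the interval of its oxygen difference ran from -0.23 to 0.12, and at P14 from 0.58 to 0.94. For Tgfb3 and Tgfbr3 the effect was more negative at P14 by -0.29 (adjusted p = 0.113) and -0.26 (adjusted p = 0.0741), neither called. Tgfbr3 was called without replicate 2 of the P5 21% O2 mice, replicate 3 of the P5 85% O2 mice or replicate 4 of the P14 85% O2 mice, with values from -0.34 to -0.30 and adjusted p from 0.0151 to 0.0403. After quantile normalization Tgfb3 (-0.42, adjusted p = 0.0325), Tgfbr2 (-0.39, adjusted p = 0.0215) and Tgfbr3 (-0.30, adjusted p = 0.0360) were called too, as was Tgfb3 with only the groups compared (adjusted p = 0.0426). With array weights Tgfb3 (-0.28, adjusted p = 0.0320), Ltbp1 (0.37, adjusted p = 0.0355) and Ltbp3 (0.33, adjusted p = 0.0227) were called. On its brightest feature Tgfbr2 was not called in the values used here (-0.20, adjusted p = 0.259), whereas its second feature was, with the opposite sign (1.30, SE 0.19, adjusted p = 1.04e-05). The second feature of Tgfbr1 was called at 0.79 (adjusted p = 0.00131), where the first gave 0.10 and no call, and a further feature of Ltbp4 was called at 0.39 (adjusted p = 0.0120), where the brightest gave 0.08 and no call. The second feature of Ltbp1 was below background in 85% O2 at P14 and has no measured value here.

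The other genes of the pathway were taken from 4 lists, of which 39 genes are reported. In scrambled antimiR mice 15 were higher and 10 lower in 85% O2 at P5, against 20 and 10 at P14. Over all features 17.5% were called higher and 26.4% lower at P5, and 28.4% and 32.4% at P14, which are the background for each list too. In antimiR-34a mice these counts were 12 and 9 at P5, and 20 and 8 at P14, where 17.2% and 29.5% of all features were called at P5, and 27.8% and 37.8% at P14. The median difference of the 39 genes in scrambled antimiR mice was 0.14 at P5 and 0.33 at P14, and over all features -0.07 and -0.06. None of the 39 was called between the antimiRs in any of the 4 comparisons, or in the difference of the oxygen effect between the antimiRs (limma).

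Among genes for storage and activation of the ligand, 5 of 11 were higher and 3 lower in scrambled antimiR mice at P5, while at P14 it was 8 and 1. Itgav, Itgb6, Mmp2 and Plat were higher in all 4 oxygen comparisons. Itgb6, the epithelial integrin subunit that with Itgav releases latent TGF-β, was higher by 1.02 at P5 (SE 0.08, adjusted p = 2.95e-07) and 1.04 at P14 (SE 0.16, adjusted p = 8.64e-05) in scrambled antimiR mice. Mmp2, a matrix metalloproteinase, was higher by 1.08 at P5 and 0.71 at P14. Furin, the protease that cleaves the propeptide from the ligand, was lower by 0.29 at P5 (log2FC -0.29, adjusted p = 0.00212) and higher by 0.40 at P14 (adjusted p = 0.00314).

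Of the co-receptors, decoys and ligand traps, 2 of 5 were higher and 1 lower at the earlier age, while at P14 it was 1 and 1. Eng, or endoglin, the endothelial co-receptor related to betaglycan, was higher by 0.70 at P5 and 0.47 at P14, and in both comparisons of antimiR-34a mice too. Acvrl1, an endothelial type I receptor of the family, was called in none of the 4 oxygen comparisons (0.10 at P14, adjusted p = 0.212). Eng and Tgfbr3 were thus on opposite sides of 0 in all 4.

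Of 12 SMADs and their regulators, 4 were higher and 0 lower at the earlier age, while at P14 these counts were 4 and 4. No gene of that list was called in all 4 oxygen comparisons. Of 11 target genes, 4 were higher and 6 lower at the earlier age, while at P14 these counts were 7 and 4. Ctgf, a matricellular protein, was higher by 0.72 and 1.35, and Cdkn2b and Pmepa1 were higher in all 4 comparisons as well. Postn (periostin, -0.49 and -0.51) and Tgfbi (-0.37 and -0.53), which encode secreted matrix proteins, were lower in all 4. Acta2, the smooth muscle actin of myofibroblasts, was lower by 0.42 at P5 (log2FC -0.42, adjusted p = 0.000843) and higher by 0.94 at P14 (adjusted p = 9.07e-05). The same turn from lower to higher was seen for Tgfb1i1 (-0.35 and 0.33). The target genes therefore did not all move one way.

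**Figure D5:**
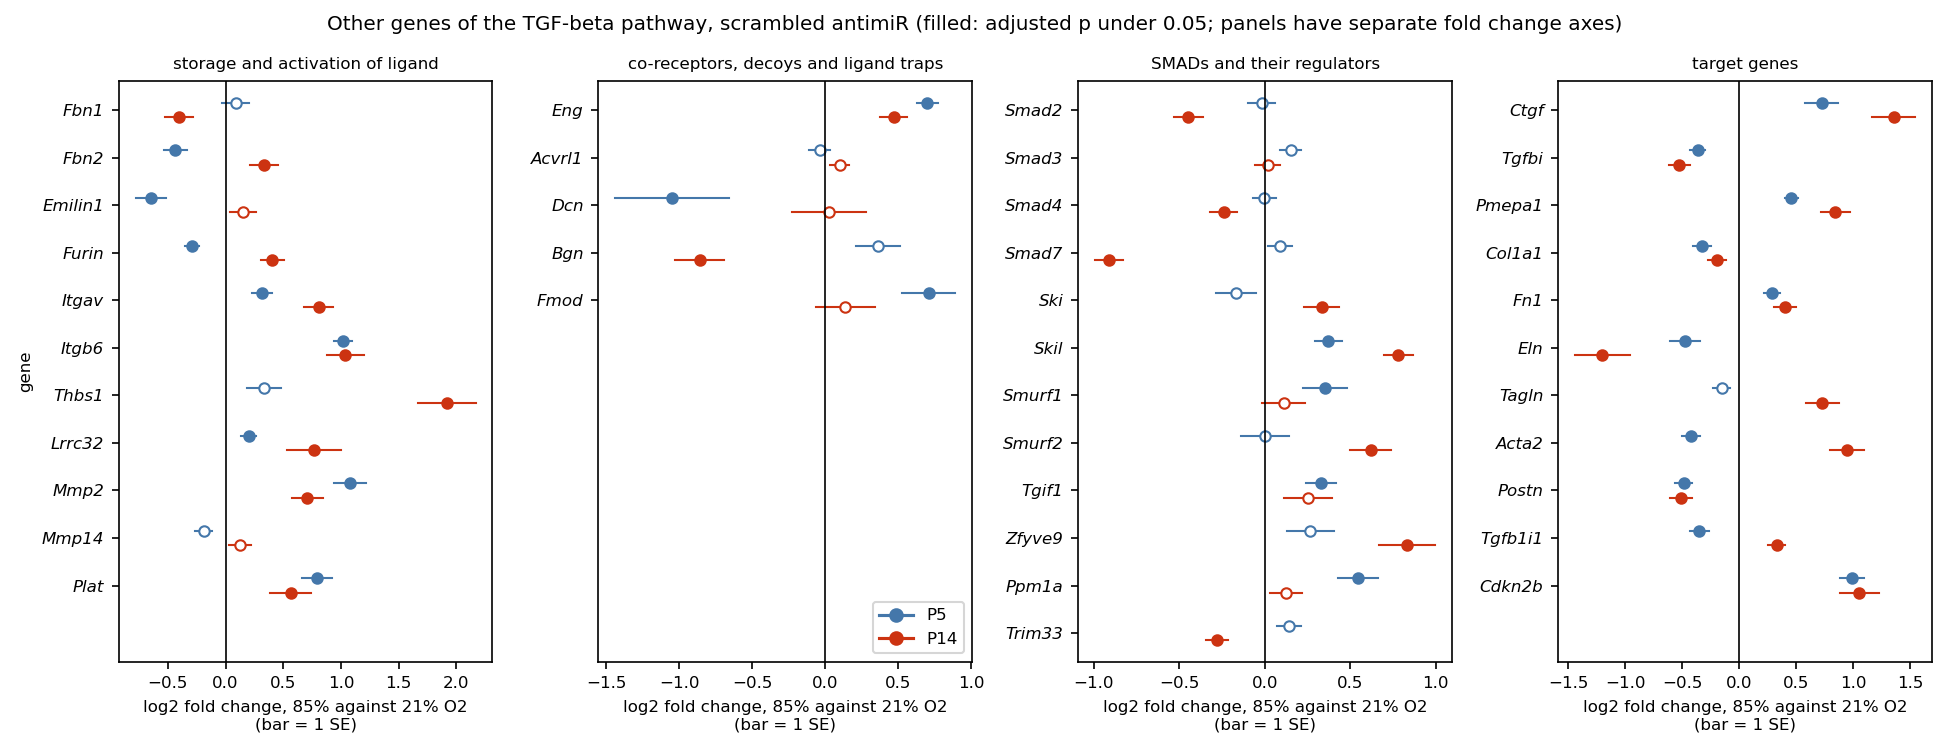
Difference between 85% and 21% O2 (log2) in scrambled antimiR mice at P5 and P14 for the genes of the 4 pathway lists, blue for P5 and red for P14, with lines of 1 SE to each side and an axis per list; filled points passed the adjusted p. Ctgf is higher by 0.72 at P5 and 1.35 at P14, and the called differences of Acta2, Fbn2, Furin and Tgfb1i1 change side between the ages.

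The genes with the pattern most like that of Tgfb2 over the 32 arrays, by the root mean square difference of levels after each feature had its mean taken off, were Otulin (0.136), Tmem47 (0.139), Pkd1 (0.142), Arhgef7 (0.144) and Fam149a (0.145). The SD of Tgfb2 over the arrays was 0.325. For Tgfbr3, with an SD of 0.302, they were Galnt4 (0.120), Sbf2 (0.121), Foxp1 (0.124), Arhgap42 (0.127) and Ing1 (0.127). They are the nearest of 27099 genes, and all arrays share their groups and slides.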

How the data were processed

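Whole-lung mRNA of 32 mice, 4 in each of 8 groups, had been measured on Agilent SurePrint G3 mouse arrays. Groups came from the sample labels, and the injection route from the study's methods. Per the file headers, the deposited spot intensity is linear, background-subtracted and detrended within the array by Agilent Feature Extraction 10.7.3.1, with no normalization between arrays. The authors also deposited a table of log2 values for the series. It had the same distribution in every column, as after quantile normalization, and served as an alternative. For RNA isolation and for anaesthesia of the P14 mice, labels and methods name different products. No count or sequencing depth applies to arrays, so that the number of mice limits the precision. No spot was saturated and no pair of arrays was identical.

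Control spots were removed (59305 of 62976 spots read 55681 mouse features), outlier spots were left out, repeated spots were averaged, and the array's 75th percentile was subtracted from log2 intensity. A feature was tested where some group had it well above background on each of its 4 arrays, which left 35984 at P5, 38458 at P14 and 39163 with both ages. limma 3.58.1 was run in R 4.3.3 with 1 mean per group and Benjamini-Hochberg adjustment, on 16 arrays within an age and on all 32 between ages. The code was tested on simulated data.

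Named were the 10 genes, the pathway genes called in every or in no comparison of oxygen levels, and the 5 genes nearest in pattern to the called gene with the largest rise and to that with the largest fall at P14. Features of a gene that differed in call from the brightest are given too. The 10 genes and the lists of pathway genes and of markers (lung epithelium, lung mesenchyme, endothelium, macrophage, neutrophil, skeletal muscle, heart muscle, red blood cell, thymus, dividing cells) were chosen with earlier results of these data known. From the list of target genes 1 gene is not reported here. Replicates are separate mice. Their numbers did not pair the samples: same-numbered deviations from the group means correlated by -0.35 to 0.50, and over 0.1 in at most 2 of 4 pairs of a comparison. Alternatives were the background correction, the normalization, the filter on dim features, the arrays in the fit, the t-test named in the methods, a replicate block, array weights, the mean of all features of a gene, a threshold of at least 2-fold, and each array or the 3 that stood apart left out. Slide as a block could not be fitted between oxygen levels or ages, and between the antimiRs it is held constant by the design. No genome was used, feature coordinates are those of the array annotation (mm9), and promoter and microRNA sequences are from RefSeq.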

Additional observations from a re-analysis of the deposited data

Results flagged for a closer look

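In 3 of 79 groups of 4 mice tested, 1 mouse lay far from the other 3 (Dixon's test at the 95% level), and chance marks about 1 in 20 such groups. Ltbp1 of replicate 3 of the P5 21% O2 scrambled antimiR mice was the lowest of its group at 1.26, against 1.40 to 1.43 in the others. Ltbp2 of replicate 1 of the same group was 5.95, against 6.39 to 6.47. Ltbp2 of replicate 4 of the P14 85% O2 scrambled antimiR mice was 6.92, against 7.08 to 7.10.

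The oxygen effect on Tgfb2 differed between the ages, by 0.82 (log2, P14 minus P5, scrambled antimiR, limma interaction, adjusted p = 5.50e-06). All 4 hyperoxia mice were above all 4 normoxia mice at P14, and the groups overlapped at P5.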

How the results depend on the processing

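Followed under the alternatives were 57 single differences, those for oxygen, for age and for the oxygen effect between ages that were over 1 SE. Smaller differences, whose sign turns more easily, and those between the antimiRs were not among them. Of 1125 values, 993 kept direction and side of the threshold, 68 lost the call, 51 gained it and 13 changed sign. The counts of called genes stayed within 1.5 times those reported, with these exceptions. A threshold of at least 2-fold left 0 genes in all 4 oxygen comparisons, both age comparisons and the difference of the oxygen effect between ages. The methods' t-test called 4 genes for oxygen in antimiR-34a mice at P14 (55.6% of all features) and 4 for age in 85% O2 (27.6%). Array weights called 1 gene for antimiR-34a in 21% O2 at P14, where it called 26.1% of all features against 0% without. The difference of the oxygen effect between ages was called in 4 genes with quantile normalization, the series table or array weights (40.3%, 40.1% and 48.3% of all features), in 3 with the mean of all features (40.7%), in 2 with only the groups compared (39.9%), and in 1 to 2 on leaving out single arrays. With a replicate block the oxygen counts were 5 and 6 at P5 (scrambled antimiR, antimiR-34a) and 6 and 6 at P14, the age counts 4 and 7, the count for the difference between ages 1, and all antimiR counts 0. The block ended 1 call, Tgfb3 in antimiR-34a mice at P14 (adjusted p = 0.0560). Sign changes with the series table were Ltbp3 for oxygen at P14 in scrambled antimiR mice (-0.27), for age in 85% O2 (-0.19) and for the difference between ages (-0.23), and Ltbp4 for age in 85% O2 (-0.083), also with quantile normalization (-0.078). With the mean of all features they were Tgfbr1 for oxygen at P14 (0.29 and 0.20 in scrambled antimiR and antimiR-34a mice), Tgfb2 (0.052), Ltbp1 (-0.13) and Ltbp4 (-0.079) for age in 21% O2, Ltbp1 for age in 85% O2 (-0.61), and Tgfbr2 (0.55) and Ltbp1 (-0.48) for the difference between ages, where the features of a gene are opposed. Otherwise the cause was not tested. Normexp moved the median of all features for oxygen at P14 from -0.06 to 0.11 (scrambled antimiR). Low signal limits the second feature of Ltbp1.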
